A study of Homo sapiens with 16 samples.

Results

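Rimonabant-treated cultures of stem-cell-derived islets were compared with cultures that received the solvent DMSO. The comparison used 2 rimonabant libraries and 2 DMSO libraries out of 16, chosen by the treatment named for each sample, and the 12 libraries of 6 other compounds served as the background. All cultures were wild type planar cultures of HUES8, a widely used line of human embryonic stem cells, exposed between stage 5 of the differentiation and 7 days of stage 6. The rimonabant group received rimonabant at 125 nM and the DMSO group received DMSO. The other compounds were colchicine at 10 nM, epirizole at 2.5 uM, Ly-294002 at 120 nM, moxifloxacin at 1.1 uM, rottlerin at 1.23 uM and vardenafil at 125 nM. Total RNA of whole cultures was sequenced in bulk, and all libraries carried 1 batch label. The rimonabant libraries held 28350177 and 29255449 counted reads, the DMSO libraries 23294377 and 26449943, and the other 12 between 24290272 and 30701868. The labels leave unsaid whether replicate libraries are separate differentiations, so a p-value here measures library-to-library spread only, part of which may be technical.

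Rimonabant is a blocker and inverse agonist of the cannabinoid receptor CB1, encoded by CNR1, and was once used against obesity. CB1 couples to inhibitory G proteins, which lower the activity of adenylyl cyclase and the level of cyclic AMP. Its lipid ligands are made on demand, 2-arachidonoylglycerol by the diacylglycerol lipases DAGLA and DAGLB and anandamide in part by NAPEPLD, and are broken down by MGLL and FAAH. In pancreatic islets CB1 signalling has been linked to hormone secretion, and in liver and fat to the synthesis of lipids.

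The cultures held the defining transcripts of islets at low levels. Levels are given as CPM, reads scaled to a library total after TMM normalisation, and the first and second library of a group are given in that order. INS, which encodes insulin, had 1.27 and 1.83 CPM in the rimonabant libraries, against 3.01 and 0.652 CPM in the DMSO libraries. GCG, which encodes glucagon, had 1.34 and 4.02 CPM in the rimonabant libraries, against 4.88 and 4.22 CPM in the DMSO libraries, and CHGA, a protein of endocrine secretory granules, had 62.99 and 156 CPM in the rimonabant libraries, against 170.5 and 90.2 CPM in the DMSO libraries. The groups overlapped for INS and CHGA, and both rimonabant libraries were below both DMSO libraries for GCG, with none of the 3 past the threshold used below. IAPP, the hormone secreted with insulin, had at most 1 read in any of the 16 libraries, G6PC2, a beta cell enzyme, at most 7 reads, and MAFA, a factor of mature beta cells, 2 to 11 reads.

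The second rimonabant library stood apart from all others in the share of GC-rich transcripts. Across tested genes, the deviation of each library from the mean of the 16 libraries was fitted against the GC content of the transcript. The slope was 0.055 in the first and 0.295 in the second rimonabant library, on the log2 scale per 10 percentage points of GC, and −0.118 and −0.152 in the DMSO libraries. The 12 other libraries ran from −0.086 to 0.080. The second rimonabant library thus had the highest slope of the 16, and the DMSO libraries had the lowest. Every other library also lay on the rimonabant side of DMSO: in the quintile of the genes with the highest GC, the median deviation from the DMSO mean was 0.29 and 0.64 (log2) in the rimonabant libraries and 0.075 to 0.319 in the other 12. In the quintile with the lowest GC it was −0.19 and −0.39 in the rimonabant libraries and −0.184 to −0.061 in the other 12.

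**Figure D1:**
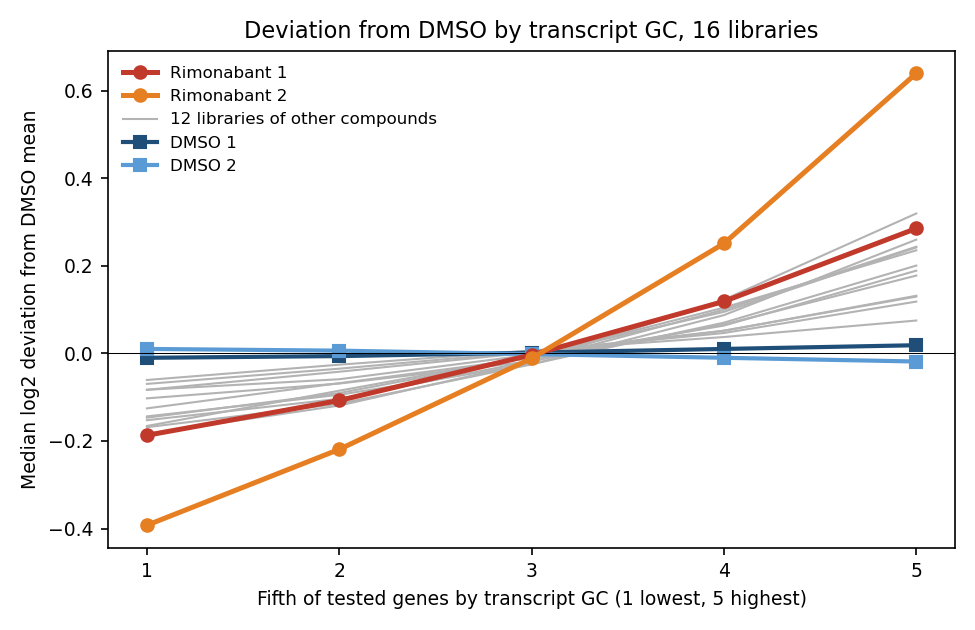
Median log2 deviation from the mean of the 2 DMSO libraries (vertical axis) in 5 equal groups of tested genes ordered by transcript GC (horizontal axis), 1 line per library. The second rimonabant library reaches 0.64 in the GC-richest quintile, the first reaches 0.29, and the 12 other libraries end between 0.075 and 0.319.

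To show the genes themselves, the start of the coding sequence is given for 5 that the results turn on, KRT5 and FASN, which were higher with rimonabant, and SYT4, CREB1 and MT-ND6, which were lower. The first 60 coding bases are printed 5′ to 3′ from GENCODE release 29 on GRCh38, with G and C in capitals.
KRT5: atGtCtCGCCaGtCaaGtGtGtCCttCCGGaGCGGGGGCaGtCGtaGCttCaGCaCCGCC
FASN: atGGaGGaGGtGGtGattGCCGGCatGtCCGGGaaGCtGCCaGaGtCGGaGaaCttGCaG
SYT4: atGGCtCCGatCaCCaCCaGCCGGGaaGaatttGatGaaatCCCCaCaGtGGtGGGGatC
CREB1: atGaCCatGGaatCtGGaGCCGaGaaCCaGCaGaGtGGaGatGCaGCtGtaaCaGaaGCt
MT-ND6: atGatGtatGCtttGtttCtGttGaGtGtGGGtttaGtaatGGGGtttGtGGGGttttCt
G or C made up 38 of the 60 bases for KRT5, 36 for FASN, 33 for SYT4, 31 for CREB1 and 24 for MT-ND6. Over whole transcripts the GC content was 56.8% for KRT5 and 65.3% for FASN. It was 38.6% for SYT4, 36.0% for CREB1 and 42.7% for MT-ND6, against a median of 47.8% over tested genes. For SYT4 and CREB1 the printed start is richer in G and C than the whole transcript, so these bases do not stand for the composition of the transcript.

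Of 24515 tested genes, 1913 (7.8%) differed between rimonabant and DMSO at an adjusted p under 0.05 in edgeR's quasi-likelihood test, with Benjamini-Hochberg adjustment over all tested genes. Rimonabant was higher for 1234 genes (5.03%) and lower for 679 (2.77%). The median log2 change was 0.62 among the genes that rose and −0.44 among those that fell. The median GC content was 61.1% for the genes that rose and 38.6% for those that fell. Calls followed GC: in the GC-richest quintile 20.8% of genes rose and none of 4671 fell, while in the GC-poorest quintile 10.7% fell and 0.0214% rose. In the middle quintile 61 of 4670 genes (1.31%) passed, 37 of them higher. With each library's GC trend entered in the fit as an offset, 0 genes passed in edgeR and 2308 (9.41%) had an unadjusted p under 0.05. The changes of 1707 of the 1913 genes kept their sign with the offset, and the median shrank to 0.18 for the genes that had risen and to −0.16 for those that had fallen.

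**Figure D2:**
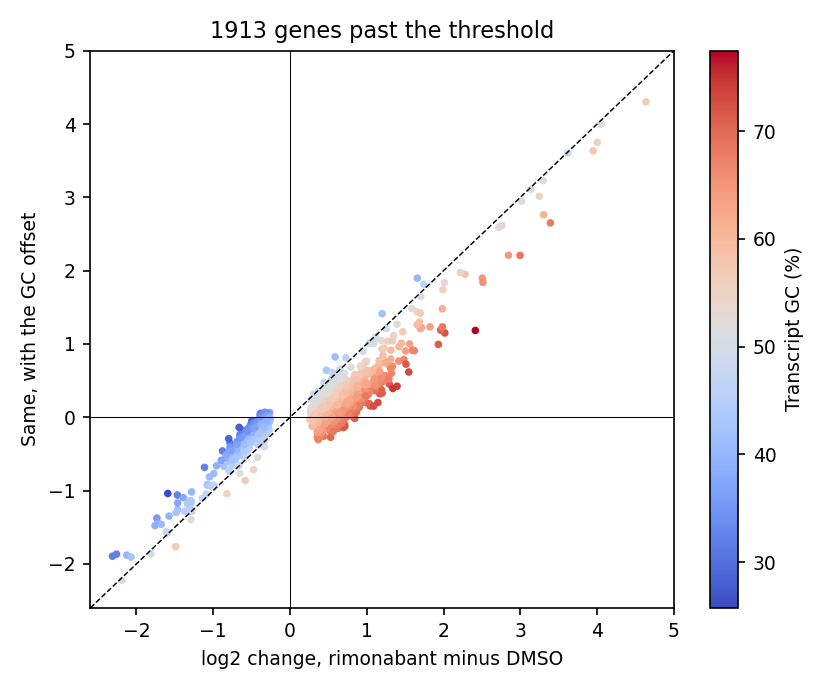
Each point is 1 of the 1913 genes past the threshold, with its log2 change (rimonabant minus DMSO) on the horizontal axis and the same value with the GC offset on the vertical axis, coloured by transcript GC. Points lie below the dashed line of equality where a change is less positive with the offset, as for most GC-rich genes, while KRT5 (4.64, and 4.30 with the offset) and KRT6A (4.003 and 3.75) lie near the line at the right.

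The calls differed between the rimonabant libraries taken singly. With the first library alone against DMSO, 0 genes passed in edgeR and 2947 had an unadjusted p under 0.05. With the second alone, 3913 genes (16%) passed. Among the genes that rose with both libraries, the median log2 change was 0.44 in the first library and 0.77 in the second. Of these 1234 genes 1144 were further from DMSO in the second, as were 16380 of all 24515 tested genes. Against the mean of the 6 other compounds, 0 genes passed in edgeR (lowest adjusted p 0.0839), 4479 (18.3%) had an unadjusted p under 0.05, and DESeq2 passed 703. Genes that passed in the second rimonabant library alone against the 12 other libraries numbered 2394, and in 2170 of them (90.6%) the first library lay on the same side of DMSO. That share was 95.7% in the GC-richest quintile and 63.3% in the middle quintile. As given above, the 12 other libraries also lay on the rimonabant side of DMSO in the GC-richest and GC-poorest quintiles. Their share was not counted, so the 90.6% has no baseline to be read against. In the fit of all 16 libraries, colchicine differed from DMSO for 48 genes, rottlerin for 2 and the other 4 compounds for 0.

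The endocannabinoid system includes rimonabant's target. CNR1, the CB1 receptor gene (chromosome 6, 88139864 to 88166359, minus strand), had 13.5 and 6.83 CPM in the rimonabant libraries, against 11.6 and 8.44 CPM in the DMSO libraries, and 8.89 to 16.4 CPM in the 12 other libraries. The groups overlapped, and the difference was small beside its error (log2 change 0.02, SE 0.28, adjusted p = 0.978). CNR2, which encodes the CB2 receptor, had 0 and 6 reads with rimonabant, 1 and 0 reads with DMSO and at most 9 reads in the other libraries, and was too low to test. GPR18, another receptor of cannabinoid-like lipids, had at most 3 reads in any library. The remaining members of the receptor list did not pass. GPR55, a receptor for lysophosphatidylinositol, had 0.318 and 1.5 CPM with rimonabant and 0.305 and 0.576 CPM with DMSO, and GPR119, a receptor of fatty acid amides and lipids on islet and gut endocrine cells, had 0.495 and 0.523 CPM with rimonabant and 0.654 and 0.153 CPM with DMSO. TRPV1, an ion channel opened by anandamide, had 17.7 and 18.01 CPM with rimonabant and 16.8 and 14.2 CPM with DMSO. TRPV2, a related channel, had 0.777 and 1.14 CPM with rimonabant and 0.436 and 0.46 CPM with DMSO, and CNRIP1, a protein that binds the tail of CB1, had 1.45 and 0.719 CPM with rimonabant and 0.828 and 1.23 CPM with DMSO. The 6 tested members had a median log2 change of 0.28, against 0.0036 over all tested genes. With the GC offset the median of the 6 was 0.14, and 2 of them had negative log2 changes.

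Of 13 tested enzymes and carriers of endocannabinoids 1 was called (7.69%), a share near the 7.8% over all tested genes. This gene, DAGLA (chromosome 11, 61680433 to 61747001, plus strand), had 29.5 and 29.9 CPM in the rimonabant libraries, against 19.9 and 20.5 CPM in the DMSO libraries, and 18.8 to 28.5 CPM in the 12 other libraries. Both rimonabant libraries lay above all 14 other libraries, as was so for 3.05% of tested genes against the 12 compound libraries. The gene rose (log2 change 0.56, SE 0.14, adjusted p = 0.0275). Its transcript is GC-rich (62.8%), and the log2 change was 0.05 with the GC offset. Its relative DAGLB had 22.1 and 26.9 CPM in the rimonabant libraries, against 16.8 and 18.6 CPM in the DMSO libraries (log2 change 0.47, SE 0.15, adjusted p = 0.0696). NAPEPLD, which makes anandamide precursors into anandamide, had 13.8 and 15.3 CPM in the rimonabant libraries, against 20.9 and 19.6 CPM in the DMSO libraries, and did not pass (log2 change −0.48, SE 0.20, adjusted p = 0.156).

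Of the enzymes that break endocannabinoids down, none passed. MGLL, the main hydrolase of 2-arachidonoylglycerol, had 19.996 and 19.3 CPM in the rimonabant libraries, against 30.6 and 19.6 CPM in the DMSO libraries (log2 change −0.35, SE 0.33, adjusted p = 0.576). FAAH, which hydrolyses anandamide, had 12.2 and 17.3 CPM in the rimonabant libraries, against 11.6 and 10.4 CPM in the DMSO libraries (log2 change 0.43, SE 0.19, adjusted p = 0.174). FAAH2 had 8.87 and 10.6 CPM with rimonabant and 11.2 and 9.48 CPM with DMSO, and the acid amidase NAAA had 2.47 and 3.01 CPM with rimonabant and 3.01 and 2.76 CPM with DMSO. The groups overlapped for MGLL, FAAH2 and NAAA, and for FAAH both rimonabant libraries lay above both DMSO libraries. The serine hydrolases ABHD6, ABHD12 and ABHD4 had log2 changes of 0.16, 0.19 and 0.29, and the phosphodiesterase GDE1 had 0.04, with adjusted p of 0.64, 0.336, 0.187 and 0.865. The fatty acid binding proteins FABP5 and FABP7, which carry anandamide inside cells, had log2 changes of 0.21 and −0.86, with adjusted p of 0.491 and 0.695. The median of the 13 genes was 0.16, and −0.0034 with the GC offset.

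Rimonabant also inhibits the sterol acyltransferases, which store cholesterol as esters. SOAT1 had 55.96 and 53.03 CPM in the rimonabant libraries, against 69.4 and 61.9 CPM in the DMSO libraries (log2 change −0.27, SE 0.11, adjusted p = 0.147), and SOAT2 had 4.17 and 4.28 CPM in the rimonabant libraries, against 3.23 and 1.84 CPM in the DMSO libraries (log2 change 0.74, SE 0.42, adjusted p = 0.305). Neither passed the test.

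Of 24 genes for inhibitory G proteins, adenylyl cyclases and cyclic AMP effectors, 5 rose and 2 fell, against 5.03% of all tested genes that rose and 2.77% that fell. GNB2, a G protein beta subunit, had 81.1 and 102 CPM in the rimonabant libraries, against 57.7 and 58.5 CPM in the DMSO libraries (log2 change 0.66, SE 0.12, adjusted p = 0.012). ADCY3, an adenylyl cyclase, had 9.64 and 13.3 CPM in the rimonabant libraries, against 6.1 and 6.02 CPM in the DMSO libraries (log2 change 0.92, SE 0.24, adjusted p = 0.0325). ADCY7, GNAI2 and the CREB coactivator CRTC1 also rose, with log2 changes of 0.55, 0.43 and 0.40. PRKAR1A, a regulatory subunit of protein kinase A, had 203 and 155 CPM in the rimonabant libraries, against 239 and 243 CPM in the DMSO libraries, and lay below all 12 compound libraries in both rimonabant libraries, as did 2.61% of tested genes (log2 change −0.43, SE 0.10, adjusted p = 0.0273). CREB1, the cyclic AMP response element binding factor, had 122 and 99.1 CPM in the rimonabant libraries, against 146 and 154 CPM in the DMSO libraries (log2 change −0.44, SE 0.11, adjusted p = 0.033). All 5 genes that rose had a GC content above the median, and both that fell had one below it. The median log2 change of the list was 0.12, and 0.02 with the offset. With the offset the log2 change was 0.58 for ADCY3, 0.08 for GNB2, −0.17 for PRKAR1A and −0.11 for CREB1.

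Keratins of squamous epithelium were among the largest rises. KRT5, the keratin of basal cells in stratified epithelia (ENSG00000186081, chromosome 12, 52514575 to 52520687, minus strand), had 4.13 and 9.09 CPM in the rimonabant libraries, against 0.0872 and 0.422 CPM in the DMSO libraries, and 0.239 to 2.34 CPM in the 12 other libraries. In raw counts it had 117 and 278 reads in the rimonabant libraries and 2 and 11 reads in the DMSO libraries, so the level in DMSO rests on few reads. KRT5 rose (log2 change 4.64, SE 0.98, adjusted p = 0.0226), and the log2 change with the GC offset was 4.30. KRT6A, a keratin of wounded and hyperproliferative epithelium (ENSG00000205420, chromosome 12, 52487174 to 52493257, minus strand), had 2.69 and 2.65 CPM in the rimonabant libraries, against 0.0872 and 0.23 CPM in the DMSO libraries, and 0.136 to 1.91 CPM in the other libraries. Both rimonabant libraries were above every other library for KRT5 and KRT6A, and the second was not further from DMSO than the first for KRT6A. KRT6A rose (log2 change 4.003, SE 0.71, adjusted p = 0.012), with 3.75 under the offset and 76 and 81 reads in the rimonabant libraries and 2 and 6 reads in the DMSO libraries. KRT6A has near-identical copies, KRT6B and KRT6C, so its share of their reads is uncertain.

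KRT1, a keratin of differentiating epidermis, had 3.25 and 1.96 CPM in the rimonabant libraries, against 0.523 and 0.269 CPM in the DMSO libraries, and 0.0415 to 1.41 CPM in the other libraries (log2 change 2.72, SE 0.71, adjusted p = 0.0351). KRT16, the partner of KRT6A, had 0.283 and 1.8 CPM in the rimonabant libraries, against 0.0872 and 0.115 CPM in the DMSO libraries, and 0.136 to 0.726 CPM in the others (log2 change 3.30, SE 0.86, adjusted p = 0.0343). The first rimonabant library lay within that range and the second above it. SFN, the epithelial 14-3-3 protein stratifin, had 33.8 and 33.9 CPM in the rimonabant libraries, against 13.9 and 14.3 CPM in the DMSO libraries, and 9.58 to 21.4 CPM in the other libraries. Both rimonabant libraries had about the same level of SFN and lay above all 14 others (log2 change 1.26, SE 0.30, adjusted p = 0.029, 0.76 with the offset). KRT10, the partner of KRT1, went the other way, with 13.2 and 8.3 CPM in the rimonabant libraries, against 17.8 and 16.1 CPM in the DMSO libraries (log2 change −0.65, SE 0.19, adjusted p = 0.0486).

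Of 28 squamous genes 20 were tested, and 6 of these (30%) were called, against 7.8% over all tested genes. Among the 6, 5 rose and 1 fell, and over the 20 the median log2 change was 0.59, or 0.39 with the offset. Both rimonabant libraries lay above all 12 compound libraries for 7 of the 20, against 3.05% of all tested genes. These 7 were KRT1, KRT4, KRT5, KRT6A, KRT13, KRT14 and SFN. KRT5 and KRT6A count in both the 6 and the 7 and were chosen with their values known. Neither share is therefore independent support for a change of the list. KRT14, the partner of KRT5, had 0.919 and 0.785 CPM in the rimonabant libraries, against 0.0872 and 0.0384 CPM in the DMSO libraries (log2 change 3.69, SE 1.13, adjusted p = 0.0574). TP63, the factor that defines basal squamous cells, had 38.8 and 34.3 CPM in the rimonabant libraries, against 31.7 and 43.2 CPM in the DMSO libraries, with overlapping groups (log2 change −0.04, SE 0.52, adjusted p = 0.979). Several markers of the lineage were at or near 0: KRT6B and LGALS7, which have near-identical copies that could take their reads, had 0 reads in every library, SERPINB5 had at most 3, and IVL, a late marker of squamous cells, had 7 and 5 reads with rimonabant and 5 and 2 with DMSO. DSG3, a desmosomal cadherin of squamous epithelium, had 10 and 10 reads with rimonabant and 2 and 2 with DMSO, but up to 19 in the other libraries, and KRT6C had 3 and 2 reads with rimonabant and 0 and 0 with DMSO. Neither was tested. PERP, a desmosomal protein, was below all 12 compound libraries, with 193 and 172 CPM in the rimonabant libraries, against 207 and 242 CPM in the DMSO libraries (log2 change −0.30, SE 0.09, adjusted p = 0.0641). The summed CPM of the list was 936 and 893 in the rimonabant libraries, 969 and 1085 in the DMSO libraries and 735 to 1056 in the others. Both rimonabant sums were below both DMSO sums, which is the opposite direction to the changes of KRT5 and KRT6A. These 2 genes, at no more than 9.09 and 2.69 CPM, are a small part of the sums. PERP alone had 172 to 242 CPM in these 4 libraries, so the sums say little about KRT5 and KRT6A. In bulk RNA, more cells of a type and more RNA per cell cannot be told apart. KRT5 and KRT6A were among the genes that led to this comparison being described.

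Of 23 genes of simple epithelium and tight junctions 7 rose and none fell, against 5.03% of all tested genes that rose and 20.8% in the GC-richest quintile. The other 16 did not pass, and 9 of the 23 had negative log2 changes. CLDN4, a tight junction claudin, had 186 and 278 CPM in the rimonabant libraries, against 149 and 139 CPM in the DMSO libraries (log2 change 0.69, SE 0.17, adjusted p = 0.0322), and CLDN7 had 86.6 and 87.9 CPM in the rimonabant libraries, against 66.1 and 65.4 CPM in the DMSO libraries (log2 change 0.41, SE 0.08, adjusted p = 0.0155). CLDN3, CLDN6 and the junction scaffold TJP3 rose by 0.78, 0.36 and 0.61 (log2). KRT19, a keratin of ducts, had 494 and 610.5 CPM in the rimonabant libraries, against 416 and 439 CPM in the DMSO libraries (log2 change 0.37, SE 0.10, adjusted p = 0.0384), and KRT7 had 38.3 and 44.8 CPM in the rimonabant libraries, against 20.97 and 20.95 CPM in the DMSO libraries (log2 change 0.99, SE 0.27, adjusted p = 0.0456). In none of the 7 did both rimonabant libraries exceed all 12 compound libraries. The list's median was 0.29, and −0.01 with the offset, and its deviation from DMSO was 0.07 in the first and 0.40 in the second rimonabant library. With the offset CLDN4 and KRT7 had 0.35 and 0.46, and KRT19 had −0.12.

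**Figure D3:**
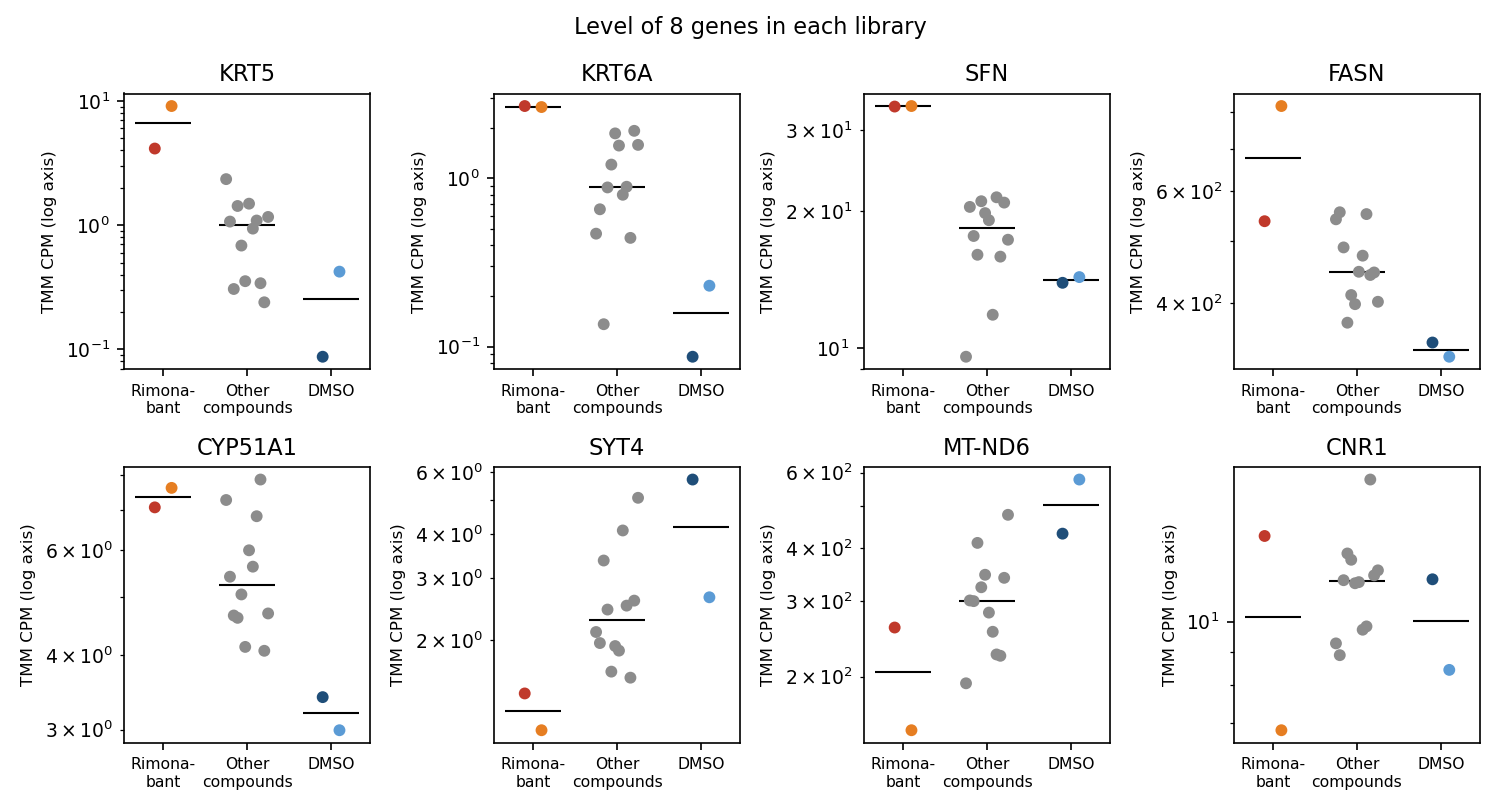
TMM-scaled CPM on log axes for 8 genes, with rimonabant libraries in red (first) and orange (second), the 12 libraries of other compounds in grey and DMSO in dark blue (first) and light blue (second); horizontal bars are the mean of 2 libraries or the median of 12. KRT5, KRT6A and SFN lie above all other libraries and SYT4 below them in both rimonabant libraries, while the groups overlap for CNR1.

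Transcripts of the mitochondrial genome were lower. All 13 mitochondrial messenger RNAs, which encode subunits of the respiratory chain and of ATP synthase, had lower values in both rimonabant libraries than in both DMSO libraries, as did 26.4% of all tested genes, and 4 of the 13 (30.8%) fell past the threshold, against 2.77% of all tested genes. MT-ND6, the messenger RNA of a complex I subunit encoded on the light strand (ENSG00000198695, chromosome M, 14149 to 14673, minus strand), had 261 and 149.99 CPM in the rimonabant libraries, against 432 and 578 CPM in the DMSO libraries, and 193 to 478 CPM in the other libraries. It fell (log2 change −1.30, SE 0.30, adjusted p = 0.0349), and the log2 change was −0.95 with the first rimonabant library alone and −1.75 with the second. MT-ND5 had 2337 and 1411 CPM in the rimonabant libraries, against 3034 and 3280.5 CPM in the DMSO libraries (log2 change −0.75, SE 0.19, adjusted p = 0.0362). MT-ND2 had 1013 and 534 CPM in the rimonabant libraries, against 1500.2 and 1759 CPM in the DMSO libraries (log2 change −1.08, SE 0.27, adjusted p = 0.0422), and MT-ATP8 had 68.3 and 27.4 CPM in the rimonabant libraries, against 126 and 159 CPM in the DMSO libraries (log2 change −1.58, SE 0.39, adjusted p = 0.0437). For these genes the first rimonabant library lay within the range of the 12 other libraries and the second below all of them. MT-ND6, 1 of the 4 that fell, was also among the genes that led to this comparison being described.

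Mitochondrial messenger RNA made up 2.18% and 1.42% of the reads in the rimonabant libraries, 2.65% and 2.84% in the DMSO libraries and 1.83% to 2.51% in the other 12. Every one of the other 12 libraries therefore also had a lower share than DMSO, and the second rimonabant library had the lowest of the 16. The median log2 change of the list was −0.79, and −0.65 with the GC offset. With the offset and the second rimonabant library alone against DMSO, 20 genes passed and 15 of them were lower, among them MT-ATP6, MT-ND4, MT-ND5, MT-ND4L, MT-CYB, MT-CO2, MT-CO1 and MT-ND2. In that fit the log2 change was −1.44 for MT-ATP6, −1.01 for MT-ND5 and −0.63 for MT-CO1. The first library alone gave −0.35, −0.37 and −0.15 for the same genes, and none of them passed. The mitochondrial ribosomal RNAs, which the depletion step targets, made up at most 0.0217% of the reads of any library and are not described further.

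**Figure D4:**
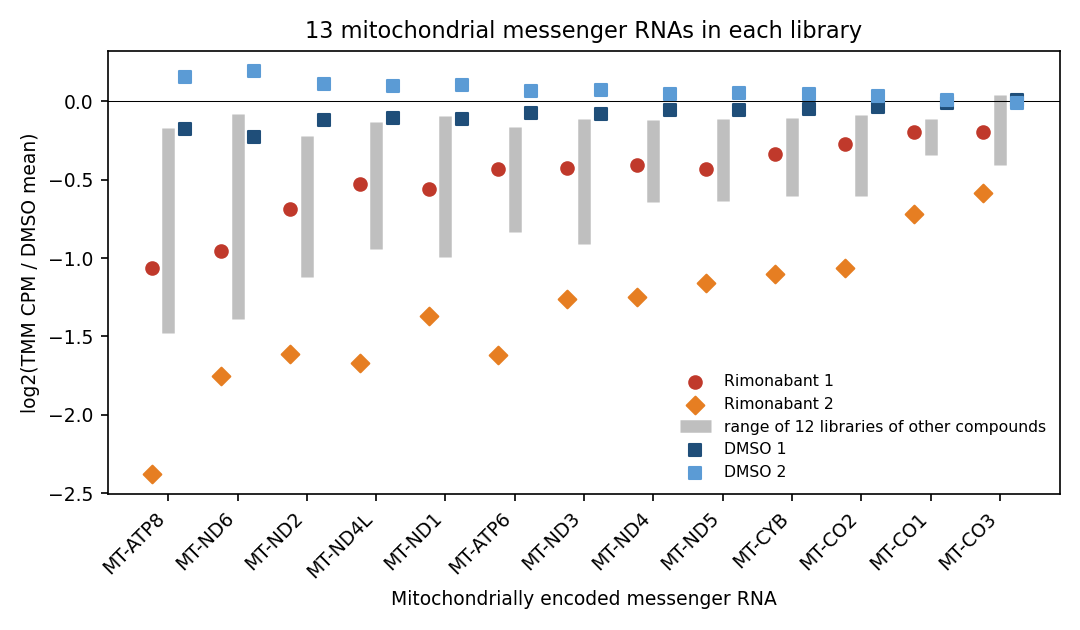
For each of the 13 mitochondrial messenger RNAs (horizontal axis), the log2 ratio of TMM-scaled CPM to the mean of the 2 DMSO libraries is shown for rimonabant (red circle first, orange diamond second library), for the range of the 12 libraries of other compounds (grey bars) and for DMSO (blue squares). The second rimonabant library lies below the grey bar for every gene and the first within it.

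Nuclear genes for the respiratory chain changed in both directions. In a list of 38 subunit genes 9 rose and none fell, against 5.03% and 2.77% of all tested genes. That list does not hold every subunit. Over the 84 tested protein-coding genes whose symbols carry the subunit roots of complexes I to V, related copies included, a count made after the values were seen, 11 rose and 2 fell, with a median log2 change of 0.07, and 0.08 with the offset. The 2 that fell were NDUFA5 of complex I, with a log2 change of −0.57 (adjusted p = 0.012), and UQCRB of complex III, with −0.36 (adjusted p = 0.0312). With the offset these were −0.21 and −0.07. UQCRC1, a core subunit of complex III, had 60.3 and 71.3 CPM in the rimonabant libraries, against 45.99 and 43.1 CPM in the DMSO libraries, and 44.2 to 58.9 CPM in the other libraries, all below both rimonabant libraries (log2 change 0.56, SE 0.11, adjusted p = 0.0137). ATP5F1D, a subunit of ATP synthase, had 13.1 and 23.1 CPM in the rimonabant libraries, against 7.63 and 8.98 CPM in the DMSO libraries (log2 change 1.13, SE 0.22, adjusted p = 0.0143). NDUFB7, of complex I, and CYC1, which encodes cytochrome c1, rose by 0.82 and 0.76 (log2). Their transcripts were GC-rich, from 59.5% for UQCRC1 to 65.0% for NDUFB7, and with the offset the log2 change was 0.16 for UQCRC1, 0.53 for ATP5F1D, 0.21 for NDUFB7 and 0.18 for CYC1. The median of the 38 was 0.22, and 0.15 with the offset. Among 19 genes that copy, transcribe and process mitochondrial DNA and RNA, FASTK, a mitochondrial RNA-binding protein, rose, with 28.6 and 41.8 CPM in the rimonabant libraries, against 19.5 and 19.2 CPM in the DMSO libraries (log2 change 0.86, SE 0.16, adjusted p = 0.012), and so did the mitochondrial RNA polymerase POLRMT, with 23.4 and 40.6 CPM in the rimonabant libraries, against 17.7 and 18.6 CPM in the DMSO libraries (log2 change 0.82, SE 0.20, adjusted p = 0.0275). TFAM, the factor that packages mitochondrial DNA, had 56.1 and 48.8 CPM in the rimonabant libraries, against 68.4 and 71.2 CPM in the DMSO libraries and did not pass (log2 change −0.41, SE 0.13, adjusted p = 0.0664). The 2 calls are 10.5% of these 19 genes, against 7.8% over all tested genes. The list's median was −0.06, and 0.11 with the offset.

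Of 25 genes of cholesterol synthesis 7 rose and none fell, against 5.03% and 2.77% of all tested genes. CYP51A1, the lanosterol demethylase (chromosome 7, 92112151 to 92134803, minus strand), had 7.07 and 7.62 CPM in the rimonabant libraries, against 3.4 and 2.99 CPM in the DMSO libraries, and 4.07 to 7.87 CPM in the 12 others. It rose (log2 change 1.20, SE 0.21, adjusted p = 0.012). Its transcript is GC-poor (41.5%), and with the offset the log2 change was 1.41. The groups did not overlap, and 2 of the 12 other libraries were above the lower rimonabant value. MVD, mevalonate decarboxylase, had 63.6 and 84.3 CPM in the rimonabant libraries, against 40.2 and 46.04 CPM in the DMSO libraries (log2 change 0.78, SE 0.12, adjusted p = 0.012), and LSS, lanosterol synthase, had 217 and 279 CPM in the rimonabant libraries, against 169.9 and 154 CPM in the DMSO libraries (log2 change 0.61, SE 0.11, adjusted p = 0.0122). SREBF2, the factor that drives this pathway, had 285 and 322 CPM in the rimonabant libraries, against 234 and 219.6 CPM in the DMSO libraries, with both rimonabant values above those of all 14 other libraries (log2 change 0.42, SE 0.08, adjusted p = 0.0129). TM7SF2 and FDPS rose by 0.66 and 0.47 (log2). The median of the list was 0.30, and 0.12 with the offset. Before the offset the median deviation from DMSO was 0.19 in the first and 0.28 in the second rimonabant library. Both lay inside the −0.015 to 0.32 of the other compound libraries.

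Of 13 genes of fatty acid synthesis 5 rose and none fell, against 5.03% and 2.77% of all tested genes. FASN, fatty acid synthase (chromosome 17, 82078333 to 82098332, minus strand), had 538 and 817 CPM in the rimonabant libraries, against 346 and 329 CPM in the DMSO libraries, and 372 to 556 CPM in the others. The first rimonabant library lay within that range and the second above it (log2 change 1.01, SE 0.17, adjusted p = 0.0122), and with the offset the log2 change was 0.37. SREBF1, the factor of fatty acid synthesis, had 67.6 and 100.4 CPM in the rimonabant libraries, against 46.3 and 46.9 CPM in the DMSO libraries (log2 change 0.85, SE 0.18, adjusted p = 0.0181), and FADS2, the fatty acid desaturase, had 311 and 373 CPM in the rimonabant libraries, against 227 and 191 CPM in the DMSO libraries (log2 change 0.71, SE 0.12, adjusted p = 0.012). PNPLA3, a lipid droplet hydrolase, and FADS1 rose by 0.60 and 0.32 (log2). The list's median log2 change was 0.32, and 0.22 with the offset. Before the offset the median was 0.25 in the first and 0.31 in the second rimonabant library, and 0.04 to 0.37 in the other compound libraries. Of 16 genes of fatty acid oxidation and PPAR receptors, PPARD alone was called (6.25%, against 7.8% over all tested genes). It rose (log2 change 0.46, SE 0.13, adjusted p = 0.0465), and the median of the 16 was −0.14.

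Of 12 tubulin genes 6 rose and none fell, against 5.03% of all tested genes that rose and 20.8% in the GC-richest quintile. The median GC content of the 12 was 57.4%. All 12 had positive log2 changes, as did 50.4% of tested genes. TUBB4B had 144 and 159 CPM in the rimonabant libraries, against 118 and 113 CPM in the DMSO libraries (log2 change 0.39, SE 0.09, adjusted p = 0.0247), and TUBA1B had 302 and 298 CPM in the rimonabant libraries, against 229.6 and 206 CPM in the DMSO libraries (log2 change 0.46, SE 0.11, adjusted p = 0.0284). TUBB3, the neuronal beta tubulin, had 32.8 and 29.8 CPM in the rimonabant libraries, against 19.8 and 19.99 CPM in the DMSO libraries (log2 change 0.65, SE 0.17, adjusted p = 0.0324), and TUBA1C, TUBG1 and TUBB2B rose by 0.38, 0.60 and 0.44. Near-identical tubulin copies can share reads, so the split among them is uncertain. The list's deviation from DMSO was 0.44 and 0.46 in the rimonabant libraries and 0.08 to 0.44 in the others, and its median of 0.45 was 0.18 with the offset.

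Of 23 actin regulators and targets of the YAP pathway 7 rose and none fell, against 5.03% of all tested genes that rose, and 5 had negative log2 changes. The median GC content of the 23 was 55.3%. In the quintile that holds this value 4.48% of genes rose, and in the GC-richest quintile 20.8% did. The list's median was 0.31, and 0.0095 with the offset, under which 13 of the 23 were positive and 10 negative. FLNA, the actin crosslinker filamin A, had 1858 and 1951 CPM in the rimonabant libraries, against 1434 and 1219 CPM in the DMSO libraries (log2 change 0.52, SE 0.10, adjusted p = 0.0125), and the non-muscle myosin MYH9 had 1292 and 1287 CPM in the rimonabant libraries, against 1082 and 927 CPM in the DMSO libraries (log2 change 0.36, SE 0.10, adjusted p = 0.0371). ACTN1, an alpha-actinin, had 194 and 189 CPM in the rimonabant libraries, against 149 and 116 CPM in the DMSO libraries, with both rimonabant values the highest of the 16 libraries (log2 change 0.53, SE 0.10, adjusted p = 0.0133). With the offset ACTN1 kept 0.48, while FLNA had 0.03 and MYH9 0.01. CFL1, which severs actin filaments, PFN1, which binds actin monomers, and ACTN4 rose by 0.54, 0.50 and 0.35. ZYX, a focal adhesion protein, had a log2 change of 0.51, which was −0.08 with the offset. The abundant extracellular genes HSPG2, which encodes perlecan, and COL2A1, a cartilage collagen, had 1334 and 1759.8 CPM with rimonabant and 1044 and 1013 CPM with DMSO for HSPG2 and 886 and 993 CPM with rimonabant and 564 and 542 CPM with DMSO for COL2A1. COL2A1 rose by 0.76 and kept 0.27 with the offset, whereas HSPG2 rose by 0.59 and had −0.0038 with it.

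Among 31 genes of regulated exocytosis 1 fell and 1 rose (6.45%), a share near the 7.8% called over all tested genes. SYT4 was the gene that fell. This synaptotagmin of secretory vesicles, which modulates calcium-triggered secretion (ENSG00000132872, chromosome 18, 43267878 to 43277650, minus strand), had 1.41 and 1.11 CPM in the rimonabant libraries, against 5.71 and 2.65 CPM in the DMSO libraries, and 1.57 to 5.07 CPM in the other libraries. Both rimonabant libraries were below all 14 others (log2 change −1.72, SE 0.46, adjusted p = 0.0364), and the log2 change with the offset was −1.45. The first DMSO library had more than the second, and without it the log2 change was −1.07 (adjusted p = 0.263). SYT1, the calcium sensor of synaptic vesicles, had 16.96 and 11.5 CPM in the rimonabant libraries, against 20.7 and 24.2 CPM in the DMSO libraries and did not pass (log2 change −0.66, SE 0.21, adjusted p = 0.0645). The exocytosis list had a median of −0.11. SYT4 was also among the genes that led to this comparison being described.

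Islet transcription factors, islet hormones and genes of beta cell excitability had no called member among 21, 10 and 17 tested, against 7.8% called over all tested genes. Their medians were −0.02, −0.11 and −0.15, and −0.28, −0.43 and −0.21 with the offset. With the offset 16 of the 21 transcription factors and 8 of the 10 hormones had negative log2 changes, against 11 and 6 without it. Over all 24515 tested genes 12171 had negative log2 changes with the offset. PDX1, the pancreatic homeobox factor, had 33.95 and 34.8 CPM in the rimonabant libraries, against 36.4 and 30.7 CPM in the DMSO libraries (log2 change 0.03, SE 0.35, adjusted p = 0.971). Of 18 genes of granules and prohormone processing 1 was called (5.56%, against 7.8% over all tested genes). This gene, PCSK1N, the inhibitor of prohormone convertase 1, rose, with 14.4 and 19.3 CPM in the rimonabant libraries, against 7.28 and 6.02 CPM in the DMSO libraries (log2 change 1.34, SE 0.33, adjusted p = 0.0327), and its GC content was 74.5%. With the offset its log2 change was 0.39. The endocrine content of the libraries, as the mean log2 CPM of 8 granule and endocrine genes, was 1.93 and 2.59 with rimonabant and 2.89 and 1.88 with DMSO, and overlapped. The 8 genes include PCSK1N, and SCG5, which had 1 to 10 reads in the libraries and was too low to test. This score, and the endocrine covariate made from it, thus hold a called gene and a gene with few reads.

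Of 14 receptor genes of alpha, delta and neuronal cells 2 fell and 1 rose (21.4%, against 7.8% over all tested genes). LRRN3, a neuronal membrane protein, had 1.98 and 2.29 CPM in the rimonabant libraries, against 8.85 and 5.64 CPM in the DMSO libraries (log2 change −1.76, SE 0.38, adjusted p = 0.0181). DRD1, the dopamine D1 receptor, had 0.53 and 0.719 CPM in the rimonabant libraries, against 2.44 and 1.42 CPM in the DMSO libraries (log2 change −1.61, SE 0.43, adjusted p = 0.0354). KCNJ4, an inward rectifier potassium channel, had 0.636 and 1.5 CPM in the rimonabant libraries, against 0.218 and 0.153 CPM in the DMSO libraries (log2 change 2.51, SE 0.67, adjusted p = 0.0367). Of the 12 other libraries, 1 was below the higher rimonabant value for LRRN3 and 2 for DRD1, and 8 were above the lower one for KCNJ4. Among 16 neuronal and neural crest genes TUBB3 alone was called (6.25%, against 7.8% over all tested genes), and the median was −0.10.

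Of 21 immediate early genes, which respond to signals within minutes, 2 fell and none rose (9.52% called, against 7.8% over all tested genes), and 15 had negative log2 changes, as did 49.6% of tested genes. ATF3, a stress-induced factor, had 79.6 and 77.4 CPM in the rimonabant libraries, against 122 and 114 CPM in the DMSO libraries, and 65.8 to 129 CPM in the others (log2 change −0.59, SE 0.12, adjusted p = 0.0163). EGR1, a factor induced by growth signals, had 378 and 383 CPM in the rimonabant libraries, against 500.3 and 558 CPM in the DMSO libraries (log2 change −0.48, SE 0.14, adjusted p = 0.046). EGR1 is GC-rich (55.4%), and with the offset its log2 change was −0.72. FOS had 338 and 415 CPM in the rimonabant libraries, against 447 and 466 CPM in the DMSO libraries (log2 change −0.28, SE 0.20, adjusted p = 0.457), and NR4A1 had 101 and 156 CPM in the rimonabant libraries, against 123 and 129.6 CPM in the DMSO libraries (log2 change 0.03, SE 0.24, adjusted p = 0.969), with overlapping groups for NR4A1. The list's median was −0.28, and −0.42 with the offset. In the single rimonabant libraries it was −0.32 and −0.22, inside the −0.58 to 0.12 of the other compound libraries.

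Of 22 genes of the unfolded protein and integrated stress responses 2 rose and 2 fell, against 5.03% and 2.77% of all tested genes. ASNS, asparagine synthetase, had 4.35 and 4.35 CPM in the rimonabant libraries, against 9.55 and 8.98 CPM in the DMSO libraries, and 3.65 to 10.8 CPM in the others (log2 change −1.09, SE 0.25, adjusted p = 0.0206). The log2 change of ASNS was −1.05 with the offset, and −1.09 with either rimonabant library alone. DNAJB9, a chaperone of the endoplasmic reticulum, had 25.3 and 25.01 CPM in the rimonabant libraries, against 37.7 and 37.6 CPM in the DMSO libraries, and 26.8 to 40.9 CPM in the others (log2 change −0.58, SE 0.15, adjusted p = 0.0324). PDIA4, a protein disulfide isomerase, had 228 and 218 CPM in the rimonabant libraries, against 175 and 173 CPM in the DMSO libraries (log2 change 0.36, SE 0.08, adjusted p = 0.0198), and SDF2L1, another protein of that compartment, had 6.78 and 6.77 CPM in the rimonabant libraries, against 3.49 and 4.07 CPM in the DMSO libraries (log2 change 0.84, SE 0.23, adjusted p = 0.0393). The list's median was −0.19. Of 18 targets of p53 2 were called (11.1%, against 7.8% over all tested genes). CDKN1A, the cell cycle inhibitor p21, and BAX, a pro-apoptotic factor, rose by 0.39 and 0.46, which became 0.05 and 0.09 with the offset, and the list's median was 0.12, or −0.05 with the offset.

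Genes of glucose breakdown and of the response to low oxygen had 1 call among 25, which is 4% against 7.8% over all tested genes. PFKL, a phosphofructokinase, had 161 and 219.8 CPM in the rimonabant libraries, against 123 and 134 CPM in the DMSO libraries (log2 change 0.56, SE 0.12, adjusted p = 0.018), and its log2 change was −0.02 with the offset, opposite in sign. Of the 25, 19 had negative log2 changes, as did 49.6% of tested genes. The median was −0.28, or −0.38 with the offset. Neither rimonabant library left the range of the other compounds, whose medians ran from −0.59 to 0.16.

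Of 13 RNAs that stay in the nucleus or act without being translated 1 rose and 3 fell, against 5.03% and 2.77% of all tested genes. MALAT1, an abundant nuclear RNA, had 31410.5 and 26775 CPM in the rimonabant libraries, against 38658 and 41032 CPM in the DMSO libraries, and 30933 to 37232 CPM in the others (log2 change −0.45, SE 0.10, adjusted p = 0.0193). RN7SL1, the RNA of the signal recognition particle, rose, with 10335 and 9363 CPM in the rimonabant libraries, against 5239.8 and 3722 CPM in the DMSO libraries (log2 change 1.14, SE 0.20, adjusted p = 0.0133), and all 12 other libraries, at 5745 to 10476 CPM, were above DMSO too. Near-identical copies of RN7SL1 make its level uncertain. TLE1-DT and CDKN2B-AS1 fell, with 0.459 and 0.36 CPM with rimonabant and 1.35 and 1.53 CPM with DMSO for TLE1-DT and 0.459 and 0.163 CPM with rimonabant and 1.83 and 0.806 CPM with DMSO for CDKN2B-AS1. CDKN2B-AS1 is an antisense gene, and without a stated strand setting its reads cannot be told from those of its partner. RNU4-2, a spliceosomal RNA outside that list, fell, and had 1.94 and 1.08 CPM in the rimonabant libraries, against 5.1 and 2.72 CPM in the DMSO libraries (log2 change −1.37, SE 0.37, adjusted p = 0.0397). RMRP, the RNA of a ribonuclease that processes ribosomal RNA, had 1206 and 681 CPM in the rimonabant libraries, against 1323 and 1058 CPM in the DMSO libraries. It did not pass with both libraries (log2 change −0.34, SE 0.21, adjusted p = 0.367). With the offset its log2 change was −1.54 with the second rimonabant library alone and −0.31 with the first. RMRP is GC-rich (63.3%), and the offset lowers the values of GC-rich genes in the second library, so part of the −1.54 comes from the offset.

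Before the GC offset, replication-dependent histone genes were above DMSO throughout the list, without any call. All 20 tested histone genes had positive log2 changes, as did 50.4% of tested genes. In 15 of them both rimonabant libraries lay above both DMSO libraries, against 26.8% of all tested genes. With the offset 15 of the 20 had positive and 5 had negative log2 changes, and the median of 0.34 became 0.25. The list's deviation was 0.35 and 0.31 in the rimonabant libraries and −0.32 to 0.38 in the others. H3C10, a histone H3 gene outside that list, rose, with 19.7 and 22.2 CPM in the rimonabant libraries, against 10.2 and 9.06 CPM in the DMSO libraries, and 10.9 to 19.3 CPM in the others (log2 change 1.12, SE 0.24, adjusted p = 0.0193). Of 25 cell cycle genes 21 had positive log2 changes, against the same 50.4%, and 0 passed. Their median was 0.15, and 0.17 with the offset. Of 38 genes of the cytosolic ribosome 5 rose and none fell (13.2% called, against 7.8% over all tested genes). Their median was 0.07, and −8.2e-05 with the offset.

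Of 19 chemokines and genes of the NF-kappa-B pathway 1 rose and 1 fell (10.5%, against 7.8% over all tested genes). CCL20, a chemokine of epithelia, had 1.27 and 1.47 CPM in the rimonabant libraries, against 5.45 and 3.72 CPM in the DMSO libraries, and 1.38 to 5.75 CPM in the others (log2 change −1.73, SE 0.43, adjusted p = 0.0286). CCL5 had 0.919 and 1.6 CPM in the rimonabant libraries, against 0.436 and 0.192 CPM in the DMSO libraries, and 0.241 to 0.839 CPM in the others (log2 change 2.01, SE 0.58, adjusted p = 0.0486). Of 4 tested blood and immune genes and 5 acinar genes none passed, and TYROBP, a defining gene of myeloid cells, had at most 1 read in any library.

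Among markers of other cell types that the cultures could hold, 9.52% of liver and gut, 14.3% of ductal, 4.76% of mesenchymal and 9.09% of endothelial genes were called, against 7.8% over all tested genes. Of 21 liver and gut genes APOA1, an apolipoprotein, had 199 and 279.6 CPM in the rimonabant libraries, against 150.1 and 106 CPM in the DMSO libraries (log2 change 0.90, SE 0.20, adjusted p = 0.0259), and CEBPA, a liver factor, rose by 0.53, or −0.10 with the offset. The summed CPM of that list was 10096 and 6152 with rimonabant and 8649 and 7020 with DMSO. Of 14 ductal and progenitor genes SLC4A4, the ductal bicarbonate transporter, had 68.4 and 83.003 CPM in the rimonabant libraries, against 112 and 114 CPM in the DMSO libraries (log2 change −0.58, SE 0.16, adjusted p = 0.0402), and KRT19 rose as given above. Of 21 mesenchymal genes RUNX2, a bone factor, fell, with 3.21 and 2.55 CPM in the rimonabant libraries, against 6.15 and 5.33 CPM in the DMSO libraries (log2 change −0.99, SE 0.29, adjusted p = 0.0489). Of 11 endothelial genes GJA5, a connexin of arteries, rose, with 1.98 and 1.8 CPM in the rimonabant libraries, against 0.392 and 0 CPM in the DMSO libraries, and 0.249 to 1.02 CPM in the others (log2 change 3.30, SE 0.87, adjusted p = 0.0367), on 56 and 55 reads in the rimonabant libraries and 9 and 0 reads in the DMSO libraries. None of 8 tested pluripotency genes passed. The list medians were 0.26 for liver and gut, −0.21 for duct, −0.02 for mesenchyme, 0.43 for endothelium and −0.03 for pluripotency, and 0.20, −0.15, −0.22, 0.25 and 0.07 with the offset. The part of these cell types in the other results was not tested.

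**Figure D5:**
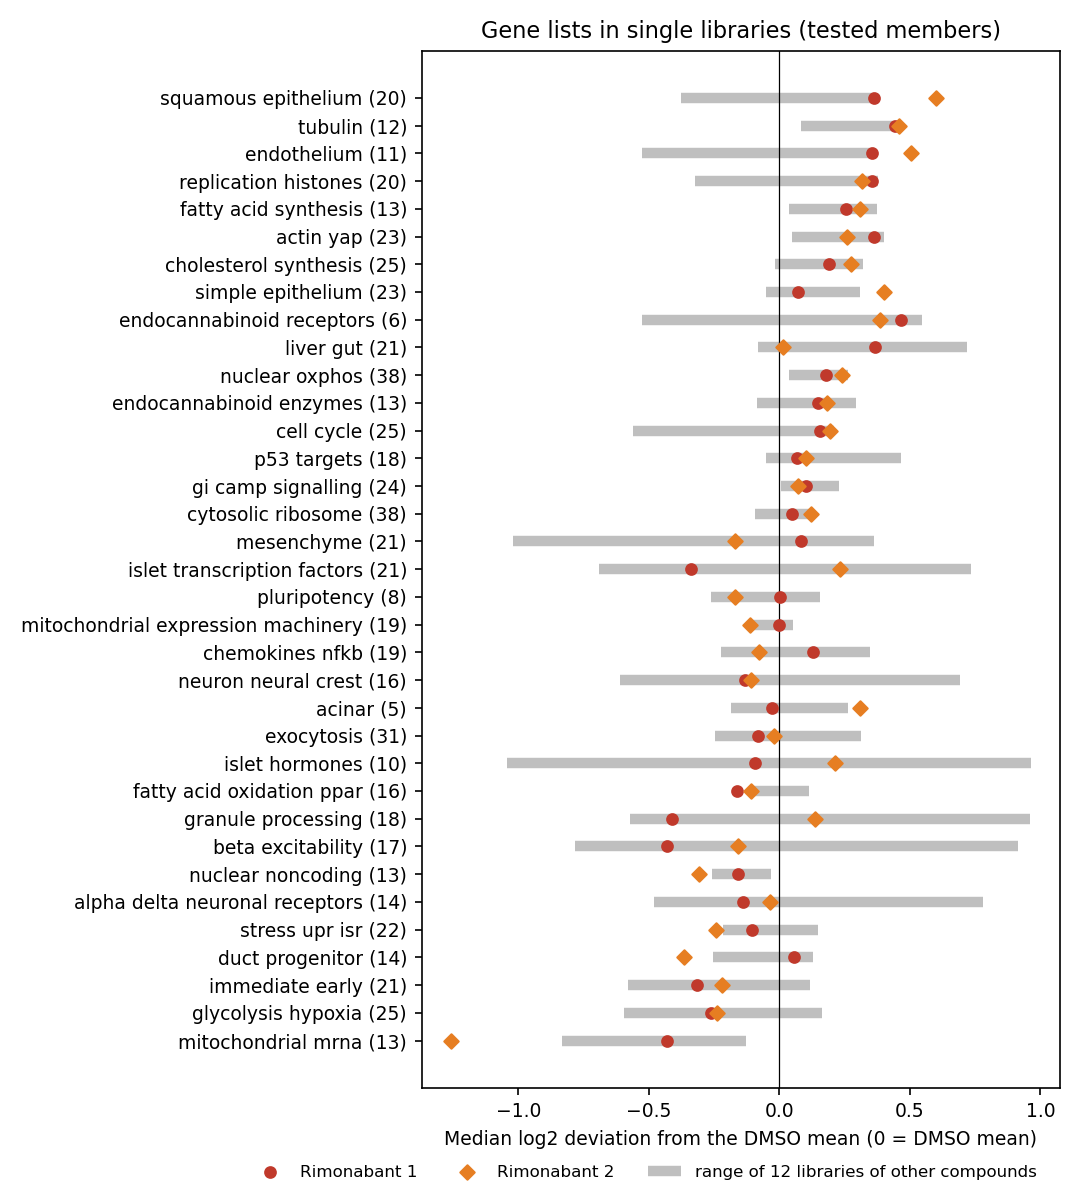
Median log2 deviation from the DMSO mean for the 35 gene lists with at least 5 tested members (number tested in brackets), in the first (red circle) and second (orange diamond) rimonabant library, beside the range of the 12 libraries of other compounds (grey bars). The lists are ordered by the median log2 change in the fit with both libraries, with squamous epithelium (0.36 and 0.60 in the single libraries) at the top and mitochondrial messenger RNA (−0.43 and −1.26) at the bottom.

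TGM2 and CHST6 rose by about as much in both rimonabant libraries and kept most of their change with the GC offset. TGM2, tissue transglutaminase (chromosome 20, 38127387 to 38166578, minus strand), had 34.1 and 36.7 CPM in the rimonabant libraries, against 16.7 and 12.7 CPM in the DMSO libraries, and 16.3 to 33.3 CPM in the others, above all of which both rimonabant libraries lay (log2 change 1.27, SE 0.18, adjusted p = 0.012). Its log2 change was 1.22 with the first and 1.32 with the second rimonabant library alone, and 1.04 with the offset. CHST6, a sulfotransferase of keratan sulfate (chromosome 16, 75472052 to 75495445, minus strand), had 10.9 and 11.1 CPM in the rimonabant libraries, against 4.53 and 3.84 CPM in the DMSO libraries, and 5.7 to 9.37 CPM in the others (log2 change 1.39, SE 0.22, adjusted p = 0.012), and 1.27 with the offset. With CYP51A1 and IGF2 these were among the 5 genes with the smallest unadjusted p under the offset. IGF2, insulin-like growth factor 2, had 1351 and 1937 CPM in the rimonabant libraries, against 1703 and 2015 CPM in the DMSO libraries. It did not pass without the offset (adjusted p = 0.491), and with the offset its log2 change was −0.63. No adjusted p under the offset was below 0.05 for any of the 5.

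Of the genes with GC near the median, CYP24A1, the enzyme that inactivates vitamin D, had 13.7 and 7.49 CPM in the rimonabant libraries, against 3.4 and 2.92 CPM in the DMSO libraries (log2 change 1.74, SE 0.41, adjusted p = 0.0274), and 3.34 to 9.2 CPM in the others. CHD9NB had 0.459 and 0.196 CPM with rimonabant and 0.915 and 2.07 CPM with DMSO, and the pseudogene TPI1P2 had 1.31 and 1.11 CPM with rimonabant and 0.392 and 0.345 CPM with DMSO. For CYP24A1 the first rimonabant library had the highest value of the 16. Other large changes were those of SLC16A11, a monocarboxylate transporter, with 1.06 and 2.26 CPM with rimonabant and 0.218 and 0.192 CPM with DMSO (log2 change 2.996, SE 0.52, adjusted p = 0.012), and of the mitochondrial pseudogene MTATP6P19, with 0.318 and 0.229 CPM with rimonabant and 1.44 and 1.3 CPM with DMSO (log2 change −2.31, SE 0.46, adjusted p = 0.0141), whose reads may come from near-identical mitochondrial copies. Among the most abundant genes that fell was WSB1, a ubiquitin ligase adaptor, with 703 and 678 CPM with rimonabant and 892 and 949 CPM with DMSO.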

How the data were processed

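Rimonabant, DMSO and 6 other compounds were each represented by 2 libraries of bulk total RNA, 16 in all. Per the labels' protocols, ribosomal RNA was removed before library preparation and reads were sequenced from both ends. FastQC 0.11.8, Trimmomatic 0.38, STAR 2.7.1a, Picard 2.20.4, StringTie 2.0.4, featureCounts 1.6.0 and HTSeq on GRCh38 are named per the submitters' processing notes. The annotation release, strand setting and handling of duplicates are not given in the sources used here, so antisense, overlapping and near-identical genes are uncertain. The authors deposited raw counts of reads per gene, 62754 genes with library totals of 23294377 to 30701868 and no column without a sample. A floor of 3 reads came to 0.0977 to 0.129 CPM and covers counting error only.

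Counts were tested with edgeR 4.0.16 in R 4.3.3. Genes kept by filterByExpr numbered 24515, with 99.92% of the reads. TMM factors scaled the libraries. All 16 libraries entered 1 quasi-likelihood fit with 8 residual degrees of freedom, and tests were two-sided, with Benjamini-Hochberg adjustment over all tested genes and a threshold of 0.05. Levels are TMM-scaled CPM, and fold changes are rimonabant minus DMSO on the log2 scale with standard errors (SE). Transcript GC was read from GENCODE release 29 for 95.3% of tested genes. The GC offset is the smoothed trend of each library's deviation over GC, with a span of 0.3. Only the edgeR fit of rimonabant against DMSO without the offset was run on simulated counts, which carried no GC trend, and the outcome is not given here. The GC offset and the alternatives below were not simulated. DESeq2 1.42.0, other size factors, no filter, the replicate block, an endocrine covariate, single libraries left out and only the 4 libraries were tried as alternatives; the GC offset with a rimonabant library left out was added after seeing the data.

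The comparison, the 38 gene lists (715 genes, of which 658 were tested) and the genes named were chosen with earlier results of these data known, and nothing here is independent support of those results. Genes were named by rule: KRT5, KRT6A, MT-ND6 and SYT4; the 10 largest rises and falls averaging 1 CPM or more in either group; the 5 most abundant in each direction; the 5 largest in each direction between the 40th and 60th percentile of GC; up to 4 per list by smallest p; all endocannabinoid and sterol acyltransferase genes; and the 5 smallest p with the offset. Genes without a symbol, and a few others picked this way, are not reported here. The members of lists named beyond the rule, such as KRT4, KRT7, KRT10, KRT13, KRT14, TP63, PERP, FOS, NR4A1, ACTN1, TFAM, SYT1 and the endocrine markers, and the remaining calls of short lists were chosen after their values were seen. Same-numbered rimonabant and DMSO libraries did not deviate together (correlation of deviations −0.0138), and over 28 pairs of groups the correlation ran from −0.283 to 0.226 with 5 pairs over 0.1, so the numbers were not treated as pairing.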

Additional observations from a re-analysis of the deposited data

How the results depend on the processing

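The 1913 calls between rimonabant and DMSO were 1828 with DESeq2's size factors in the edgeR fit, 1806 of them the same genes, 2686 without the filter and 2868 in DESeq2, of which 1845 were shared. The GC offset, alone and with the replicate block, left 0 (2308 and 2119 at an unadjusted p under 0.05), and the endocrine covariate gave 3315. With the library number as a replicate block 1090 passed (776 higher, 314 lower), though the numbers do not pair the samples. Only the 4 libraries of the comparison gave 200. Leaving out single libraries gave 0 to 3913: 0 without Rimonabant 2, DMSO 1 or DMSO 2 (2947, 4739 and 3948 at an unadjusted p under 0.05) and 3913 without Rimonabant 1. In these fits a lone library is assumed to vary like the other groups. With the offset, leaving out a rimonabant library gave 20 genes without the first and 1, KCTD12, without the second, and these fits were chosen after seeing the data. Against the 6 other compounds the count of 0 (DESeq2 703) was 1334 without the filter and 199 with the endocrine covariate, and 0 to 2394 with a rimonabant library left out. With the offset it was 0 with both libraries and with the first alone, and 6 without the first. No compound left out of the mean changed the 0. The GC slope of the second rimonabant library, 0.295, was 0.299 in genes of at least 10 CPM and 0.430 against the DMSO mean, and as a difference between the highest and lowest GC quintile it was 0.705 (log2).

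Among list members, 93 calls became 180 without the filter, 147 with the endocrine covariate, 55 with the replicate block, 27 in the 4 libraries and 0 with the offset, alone or with the block, and 0 to 139 with a library left out. Of 136 named genes 95 passed, against 58 with the block, 24 in the 4 libraries, 0 with either offset, and 0 to 92 with a library left out. DESeq2, its size factors, the missing filter and the 4-library fit reversed no named gene. With the GC offset the log2 change turned to −0.20 for ABHD12, −0.0054 for ACTN4, −0.10 for CEBPA, −0.024 for CLDN6, −0.085 for CNRIP1, −0.091 for CRTC1, −0.094 for FAAH, −0.0038 for HSPG2, −0.12 for KRT19, −0.41 for NR4A1, −0.37 for PDX1, −0.018 for PFKL, 0.14 for TP63, −0.052 for TRPV1, −0.0037 for TUBB4B and −0.084 for ZYX, and with the block added also to −0.0059 for ACTN4, −0.21 for CNRIP1, −0.097 for FAAH, −0.0039 for HSPG2, −0.051 for TRPV1, −0.0034 for TUBB4B and −0.085 for ZYX. It turned to −0.018 for CNR1, −0.0012 for CNRIP1 and 0.0997 for INS with the endocrine covariate and to −0.052 for CNRIP1 with the block. Among the genes whose direction turned when a library was left out, the log2 change ran over −1.04 to 0.28 for CHGA, −0.55 to 0.44 for CNR1, −0.52 to 0.49 for CNRIP1, −0.22 to 0.038 for FAAH2, −0.071 to 0.16 for GDE1, −0.36 to 1.70 for GPR119, −0.47 to 1.75 for GPR55, −0.46 to 0.059 for IGF2, −0.95 to 1.25 for INS, −0.64 to 0.00085 for MGLL, −0.22 to 0.061 for NAAA, −0.31 to 0.30 for NR4A1, −0.083 to 0.16 for PDX1, −0.81 to 0.023 for RMRP and −0.24 to 0.20 for TP63. None of the genes that had passed turned in those fits, and the cause of these shifts was not tested. Precision is limited by 2 libraries a group, and for KRT16, GJA5 and other genes near 1 CPM by few reads.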
